A study of Mus musculus with 7 samples.

Results

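The 827 sites described here are 500 bp stretches of mouse DNase hypersensitive DNA whose reporter output was at least 2-fold below their plasmid input with 2 promoters, SCP1 and pPGK, and not with another, labelled pR-Ea. They were chosen from 30857 bins of build mm9 that held at least 50 input reads with each of these promoters, and make up 2.68% of them. Activity is the log2 ratio of reporter reads to input reads, each with a pseudocount of 1 and scaled to its total over the 30857 bins, and a bin is called low at an activity of -1 or less. The values that chose the sites are described below with no test, since the rule fixes them.

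A silencer is a DNA element that lowers transcription from a promoter, and a given element can act differently on different promoters. In a self-transcribing reporter assay each captured fragment is cloned so that it becomes part of the transcript it acts on, and its reads in RNA relative to its reads in the plasmid pool measure its output. SCP1, the super core promoter 1, is a synthetic core promoter that combines several core promoter motifs, and pPGK is the promoter of the housekeeping gene for phosphoglycerate kinase. The labels give no composition for pR-Ea.

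The assay was made in P5424, a mouse line of immature T cells, with 1 reporter library each for SCP1, pPGK, pR-Ea and a pPGK library labelled PMA_I, and with inputs for the 3 promoters. PMA activates protein kinase C and ionomycin lets calcium into the cell, a pair used to stand in for T cell receptor signals. The treatment field names both agents for every sample, so the stimulated library was identified by its title. With 1 library per group no difference below has a replicate check, and all of them are between these libraries. Activity is relative to the average of the kept bins and no neutral insert served as a baseline, so a low bin is not shown to silence.

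In the kept bins the SCP1 file gave 35555069 reads from the reporter and 28058715 from the input, the pPGK file 27252452 and 11423829, the pR-Ea file 29878933 and 11027947, and the pPGK PMA_I file 31464078 and 14654231. The input counts of both pPGK files were equal on all 5646980 lines they share, but the mapping quality listed for a line could differ, so that a minimum quality of 30 left different input totals. The median activity of all kept bins was -0.16 with SCP1, 0.07 with pPGK, -0.02 with pR-Ea and 0.28 in pPGK PMA_I. At positions that no file lists below a quality of 30 the PMA_I median was 0.06, a shift of the scale that can change a low call, so the count of low sites in PMA_I is given both ways; other PMA_I values are from the PMA_I file at a quality of 30 or more unless stated. Low calls were made in 14.9% of kept bins with SCP1, 9.78% with pPGK, 8.4% with pR-Ea and 7.63% in pPGK PMA_I.

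Activity in the 827 sites was low to a like degree with SCP1 and pPGK. With SCP1 their activity ran from -7.67 to the threshold of -1 with a median of -1.47 and quartiles of -1.93 and -1.23. With pPGK it ran from -5.65 to that threshold with a median of -1.41 and quartiles of -1.79 and -1.19. SCP1 was the lower of the pair in 446 sites, so neither promoter led throughout. This count was not taken over all kept bins. Activities of -2 or less were reached by 185 sites with SCP1, where 3.52% of all kept bins did so. With pPGK 153 sites reached them, where 2.98% of kept bins did. Both were at -2 or less in 81 sites, a count not taken over all kept bins. No reporter read was found with SCP1 in 3 sites and with pPGK in 0. Across the 827 sites, which share libraries and are not independent replicates, the Spearman rho of SCP1 and pPGK activity was 0.31, against 0.58 over all kept bins, in a set whose range the rule cuts off.

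With pR-Ea most of the sites were still below input. The median was -0.59, the quartiles were -0.79 and -0.28, and the highest value was 1.12. Activity was above 0 in 87 of the 827 sites, or 10.5%, while 48.5% of all kept bins were above 0. It was above -0.5 in 353 sites, or 42.7%, against 77.7% of kept bins. Another 251 sites lay between -1 and -0.75, close to the threshold of the rule, a count not taken over all kept bins. The gap between pR-Ea activity and the higher of the SCP1 and pPGK activities had a median of 0.78 and a range of 0.02 to 4.59. It was at least 1 in 288 of the 827 sites, while 2.72% of all kept bins had a gap that large. A gap of at least 2 was found in 35 sites and one under 0.5 in 194, counts not taken over all kept bins. In the plot of pR-Ea activity against the other promoters the sites therefore lie in a continuous cloud of bins with no break at the thresholds. A small set of sites lies far from where the thresholds meet.

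**Figure D1:**
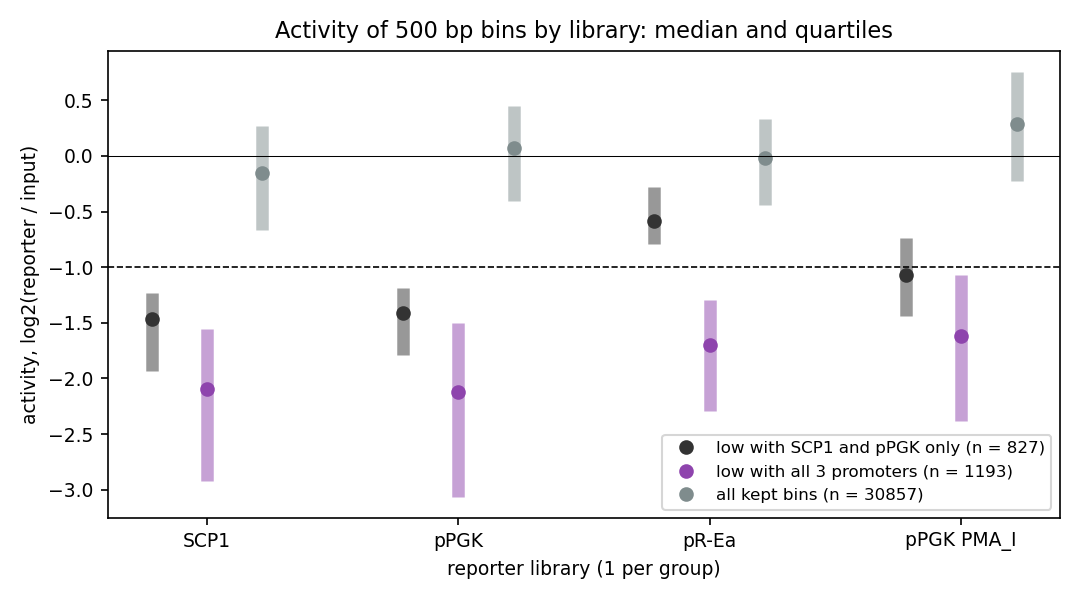
Activity (log2 of reporter over input) in each of the 4 reporter libraries for the 827 sites, the 1193 bins low with all 3 promoters and all 30857 kept bins; points are medians, bars run from the first to the third quartile, and the dashed line is the threshold of -1. The 827 sites have medians of -1.47, -1.41, -0.59 and -1.07 in the order shown, and the bins low with all 3 promoters have a lower median in each of the 4 libraries.

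**Figure D2:**
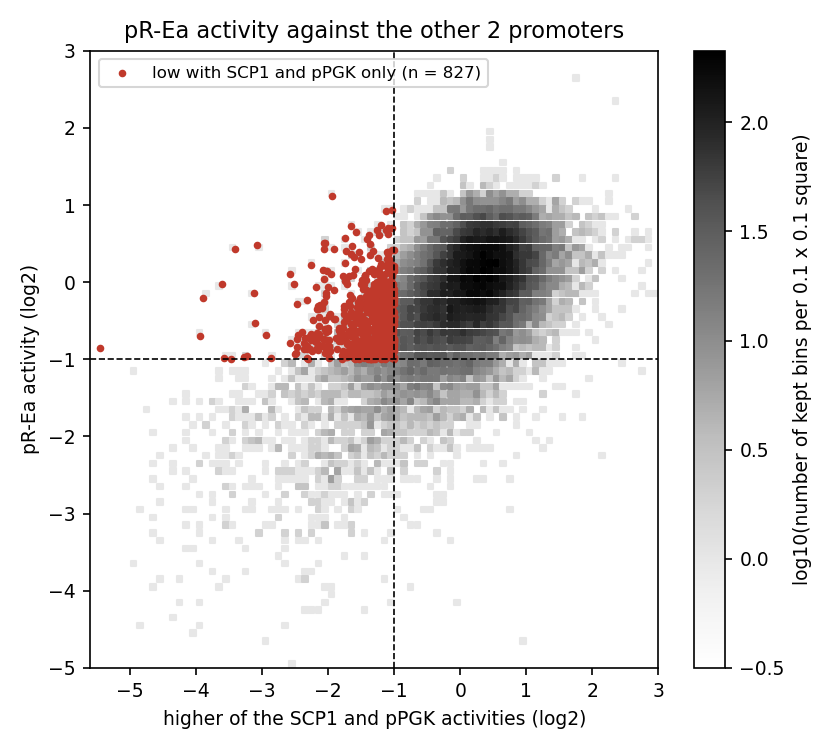
Activity with pR-Ea (vertical) against the higher of the SCP1 and pPGK activities (horizontal), both log2, with the number of kept bins per square in grey on a log10 scale and the 827 sites as red points; bins beyond the axes are not drawn. The dashed lines are the thresholds of the rule, and most red points lie near the corner where they meet.

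Sites on either side of the thresholds had nearly the same values. At the SCP1 threshold the member on chromosome 10, 80119001 to 80119500, had an SCP1 activity of -1.0011, and the bin left out on chromosome 15, 100445001 to 100445500, had -0.99994. At the pPGK threshold the member on chromosome 9, 21854501 to 21855000, had -1.0006 and the bin left out on chromosome 17, 68353001 to 68353500, had -0.99989. At the pR-Ea threshold the member on chromosome 6, 42959501 to 42960000, had -0.99984 and the bin left out on chromosome 4, 48825501 to 48826000, had -1.0001. Of the 827 sites, 326 met all 3 conditions with the exact (Clopper-Pearson) 95% counting interval of each activity clear of -1, or 1.06% of kept bins. With a standard error over distinct read positions (SE) in place of counting error, 127 did so, or 0.412% of kept bins. These 127 sites were read more deeply, with a median of 1383 SCP1 input reads against 441.5 in the other 700. The SCP1 median of these sites was -1.83, the pPGK median -1.78 and the pR-Ea median -0.48, and their median gap was 1.24 against 0.72. Counting intervals cover counting error only and are too narrow, since PCR copies are not independent molecules; the SE takes positions as independent and covers no variation between cultures.

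The choice of sites depends on how reads are counted. Counting each distinct position once, 264 bins met the rule, of which 55 were among the 827. With a threshold of -1.5 for all 3 promoters 432 bins met it, of which 214 were among the 827. The sequenced inputs also shared only part of their positions in the sites. Of 113377 input positions in the 827 sites with SCP1, 41.9% were also in the pR-Ea input and 20.9% in the pPGK input. Conversely, 47.2% of 100645 pR-Ea positions and 52.1% of 45389 pPGK positions were in the SCP1 input. A position without reads in an input is not shown to be absent from the plasmid pool. At positions with input reads for all 3 promoters 4859 bins had enough input; 280 of the 827 sites were among them, and 195 of these met the rule again.

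The reporter and input counts were also looked at apart. Both entered the rule, which asks for a higher ratio with pR-Ea. It therefore in large part sets the excess of pR-Ea reporter reads given below. Scaled pR-Ea reporter reads exceeded scaled SCP1 reporter reads in 780 of the 827 sites, by a median of 1.59 on the log2 scale. Over all kept bins they did so in 17818 of 30857, and the median was 0.21. They were at least 2-fold higher in 569 sites, or 68.8%, against 23.6% of kept bins. The scaled pR-Ea input was itself higher than the SCP1 input, by a median of 0.48 against 0.06 over all kept bins. Against pPGK, pR-Ea reporter reads were higher in 699 sites, and in 15038 of the 30857 kept bins. The median difference was 0.93 in the sites and -0.03 over all kept bins. The pR-Ea reads were at least 2-fold higher in 395 sites, or 47.8%, against 15.6% of kept bins. The pR-Ea and pPGK inputs differed by a median of 0.01. The pR-Ea input was the higher of the pair in 570 sites against SCP1 and in 419 against pPGK. Among the 30857 kept bins these counts were 16194 and 16595. An input at least 2-fold lower with pR-Ea than with pPGK was found in 126 sites, or 15.2%, against 10% of kept bins, and than with SCP1 in 37 sites, or 4.47%, against 9.42%. The median site held 219 reporter and 535 input reads with SCP1, 259 and 313 with pPGK, and 522 and 275 with pR-Ea.

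The largest gap by the naming rule, which asks for at least 100 input reads with each promoter, was at chromosome 17, 56381501 to 56382000. This bin held 105 reporter and 1240 input reads with SCP1, 17 and 146 with pPGK, 662 and 280 with pR-Ea, and 44 and 146 in pPGK PMA_I. The activities were -3.89 for SCP1 (SE 0.41), -4.28 for pPGK (SE 0.56), -0.20 for pR-Ea (SE 0.12) and -2.81 for pPGK PMA_I (SE 0.41). Only the pR-Ea value was near the average of the kept bins, and the pPGK input came from 14 positions. Chromosome 19, 4989001 to 4989500, was second, with 66 reporter and 644 input reads with SCP1, 6 and 135 with pPGK, 832 and 312 with pR-Ea, and 34 and 135 in PMA_I. Its activities were -3.61 (SE 0.49), -5.53 (SE 0.76), -0.03 (SE 0.16) and -3.06 (SE 0.55) in that order, the same pattern as on chromosome 17.

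The third, chromosome 7, 53652001 to 53652500, was the only one of the 827 sites at least 2-fold above input with pR-Ea, as 0.859% of all kept bins were. It held 703 reporter and 2141 input reads with SCP1, 422 and 754 with pPGK, 4428 and 751 with pR-Ea, and 491 and 831 in PMA_I. Activity was -1.95 for SCP1 (SE 0.25), -2.09 for pPGK (SE 0.33), 1.12 for pR-Ea (SE 0.08) and -1.86 for PMA_I (SE 0.21), so that it lay below input in 3 libraries and above it in 1. The bin at chromosome 7, 134093001 to 134093500, had activities of -2.58 (SE 0.29), -3.66 (SE 0.30), 0.11 (SE 0.17) and -2.55 (SE 0.18) in the same order. Chromosome 13, 113846501 to 113847000, rested on more input, 3871, 2728 and 1837 reads with SCP1, pPGK and pR-Ea. Its reporter counts were 408, 422 and 2524, and its activities -3.58 (SE 0.23), -3.94 (SE 0.21) and -0.98 (SE 0.20). That pR-Ea value lies within its SE of the threshold, so the bin has a large gap and is nearly low with all 3 promoters. Chromosome 5, 33781001 to 33781500, was sixth, at -2.36 (SE 0.43), -2.07 (SE 0.49) and 0.51 (SE 0.17).

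The 6 sites lowest with both SCP1 and pPGK included the bins on chromosomes 17, 19 and 13 above. The others were chromosome 9, 118980001 to 118980500, chromosome 3, 129210501 to 129211000, and chromosome 2, 91820501 to 91821000. On chromosome 9 the counts were 28 reporter and 221 input reads with SCP1, 33 and 154 with pPGK, and 283 and 204 with pR-Ea, or activities of -3.28 (SE 0.53), -3.44 (SE 0.34) and -0.97 (SE 0.15). In PMA_I that bin held 204 reporter and 166 input reads, an activity of -0.81 (SE 0.22), above the threshold. The bin on chromosome 3 was at -3.67 (SE 1.02), -3.23 (SE 0.37) and -0.95 (SE 0.15), and that on chromosome 2 at -2.95 (SE 0.58), -3.54 (SE 0.69) and -0.68 (SE 0.50). All 3 of these pR-Ea activities were within 1 SE of -1.

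The sites with most input reads had smaller gaps and much smaller errors. Chromosome 17, 87088501 to 87089000, held 6719 reporter and 13895 input reads with SCP1, 1675 and 2291 with pPGK, 9349 and 5382 with pR-Ea, and 2729 and 2417 in PMA_I. Its activities were -1.39 (SE 0.08), -1.71 (SE 0.08), -0.64 (SE 0.04) and -0.93 (SE 0.08), and the PMA_I value was -1.28, a low call, at positions that no file lists below 30. Chromosome 11, 109472501 to 109473000, held 5582 and 12351, 3292 and 3812, and 7283 and 4320 reads with SCP1, pPGK and pR-Ea. Its activities were -1.49 (SE 0.09), -1.47 (SE 0.10) and -0.68 (SE 0.04), and -1.35 (SE 0.09) in PMA_I. Both bins thus had pR-Ea activities between -1 and 0. Chromosome 8, 97400001 to 97400500, was at -1.07 (SE 0.06), -1.14 (SE 0.11) and -0.43 (SE 0.04), while the bin at chromosome 3, 38383501 to 38384000, was at -1.35 (SE 0.12), -1.37 (SE 0.17) and -0.77 (SE 0.05). The values at chromosome 5, 116182501 to 116183000, were -1.32 (SE 0.08), -1.09 (SE 0.10) and -0.22 (SE 0.05). Chromosome 2, 166539001 to 166539500, with the smallest gap of the 6, was at -1.16 (SE 0.07), -1.25 (SE 0.06) and -0.76 (SE 0.04).

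**Figure D3:**
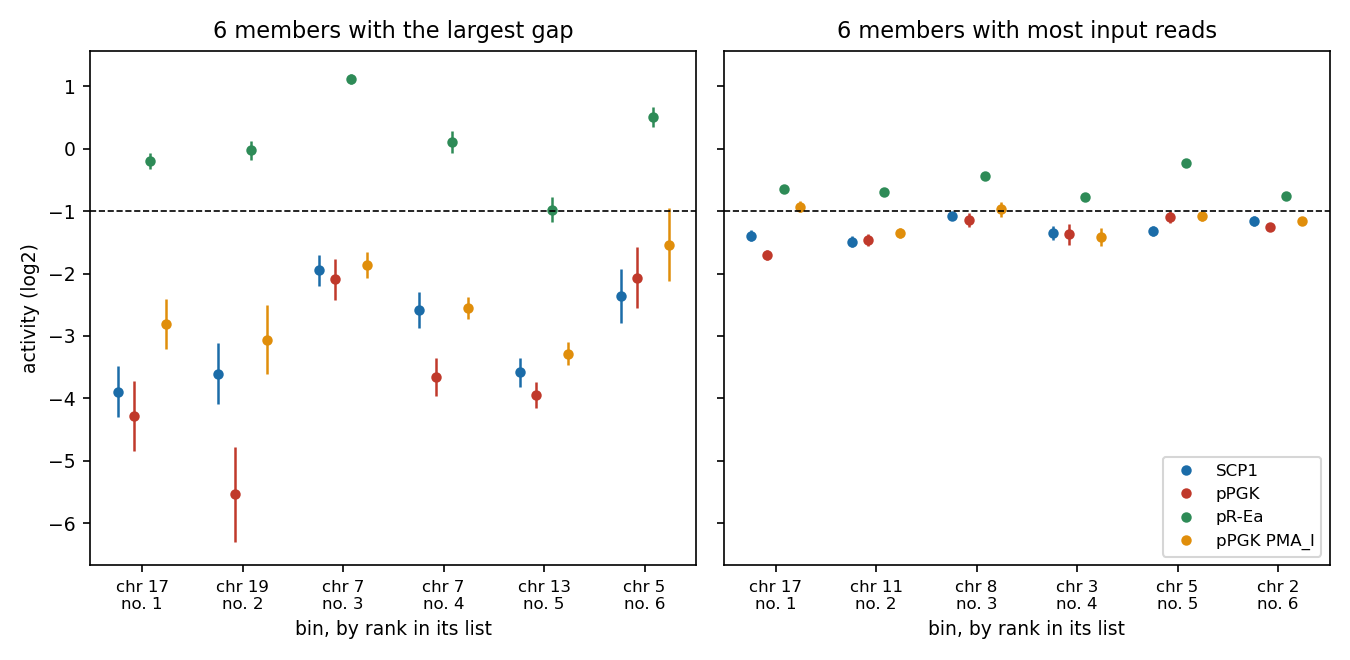
Activity (log2) in the 4 libraries for the 6 sites with the largest gap (left) and the 6 with most input reads (right), in order of rank; vertical lines are 1 SE over positions to each side, and the dashed line is -1. Gaps on the left run from 2.58 to 3.69 with wide errors for SCP1 and pPGK, and those on the right from 0.39 to 0.87 with narrow errors.

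The PMA_I reporter reads were not used to choose the sites, although their input is that of pPGK, which was. In this library 450 of the 827 sites were low, or 54.4%, against 7.63% of all kept bins. Their median was -1.07 and their quartiles -1.44 and -0.74, where the median of all kept bins was 0.28. At positions that no file lists below a mapping quality of 30, 595 of 818 sites with enough input were low, or 72.7%, against 9.76% of kept bins, and the medians were -1.27 and 0.06. Of the 127 sites clear of the thresholds by their SE, 106 were low. PMA_I activity was above 0 in 11 of the 827 sites, against 65% of kept bins. With the input of another promoter in place of the pPGK input the sites' share and that of all bins lay closer together. It was 44.1% of the sites against 24.2% of kept bins with the SCP1 input, and 60.6% against 20.2% with the pR-Ea input. Both of those inputs also entered the rule, so these shares are not independent of how the sites were chosen.

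Other classes of bins were set beside these values, with no test of the differences. In PMA_I 77.9% of the 1193 bins low with all 3 promoters were low, with a median of -1.62. The share was 61.9% of the 194 bins low with pPGK and pR-Ea only, with a median of -1.19. It was 44.1% of the 805 bins low with pPGK alone, with a median of -0.92, and 3.91% of the 2174 bins low with SCP1 alone, with a median of 0.01. The PMA_I library has the promoter and the input of pPGK, so classes chosen as low with pPGK share that input with it. The pPGK medians of these classes were -2.13, -1.57, -1.23 and -0.33 in the order given, and that of the sites was -1.41. The PMA_I shares thus followed how low each class was with pPGK.

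**Figure D4:**
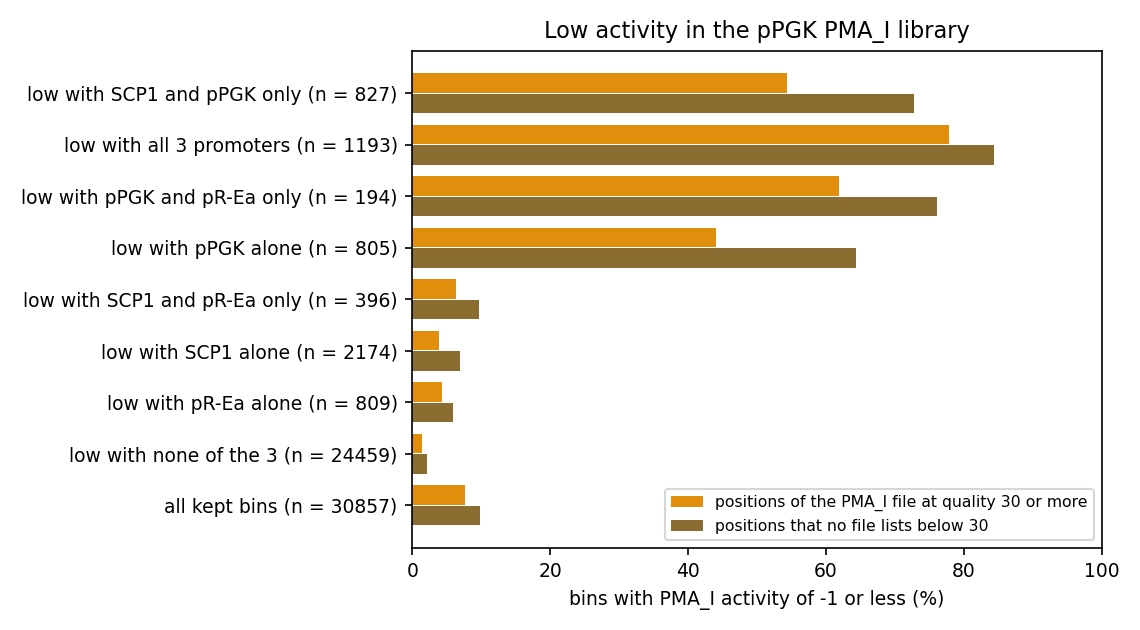
Share of bins (%) with a PMA_I activity of -1 or less, by the promoters with which a bin was low; the upper bar of each pair uses positions of the PMA_I file with a quality of 30 or more, and the lower bar positions that no file lists below 30, over the bins that keep at least 50 input reads there. The 827 sites are at 54.4% and 72.7%, below the bins low with all 3 promoters and those low with pPGK and pR-Ea only, and above those low with pPGK alone.

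The highest and lowest sites in PMA_I were named by the same rule. Chromosome 4, 107514001 to 107514500, held 1201 PMA_I reporter reads against 517 with pPGK, over 507 and 485 input reads. Its PMA_I activity was 0.14 (SE 0.15), and its other activities were -1.63 for SCP1, -1.16 for pPGK and -0.50 for pR-Ea. Chromosome 14, 61791001 to 61791500, was at 0.11 (SE 0.35) and chromosome 9, 43874501 to 43875000, at 0.05 (SE 0.15). At positions that no file lists below 30 these 3 values were -0.13, -0.17 and -0.23. The lowest was chromosome 13, 44964501 to 44965000, at -3.94 (SE 0.85), from 27 reporter and 199 input reads. In this bin 81.9% of pPGK input reads had a quality below 30, and its SCP1 activity of -1.71 became 0.09 at positions that no file lists below 30. Chromosome 19, 58001001 to 58001500, was at -3.79 (SE 0.43) and chromosome 9, 108729001 to 108729500, at -3.69 (SE 0.61). The latter held 7 reporter and 167 input reads with pPGK and 478 and 207 with pR-Ea, and 0% of its pPGK input reads had a low quality.

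Low activity extended past the bins. Of the 827 sites, 503 adjoined another kept bin and 324 none. A second member of the group adjoined 132 of them, whereas 1.8% of all kept bins adjoined a member. The 423 kept bins that adjoined a site without being one had median activities of -0.75 with SCP1, -0.68 with pPGK, -0.39 with pR-Ea and -0.45 in PMA_I. Low calls among them numbered 153 (36.2%) with SCP1, 124 (29.3%) with pPGK, 82 (19.4%) with pR-Ea and 113 (26.7%) in PMA_I, to be read against the shares of all kept bins given above. Of these neighbours 55 were low with all 3 promoters, where 3.87% of all kept bins were. At a distance of 1000 bp the 103 kept bins had medians of -0.60, -0.23, -0.20 and -0.09, and at 1500 bp the 54 kept bins had -0.34, -0.33, -0.33 and 0.03. Fragments are 315 bp long, so a bin and its neighbour share sequence although no read is counted in both.

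Activity dipped at the centre of the sites in each library, and least with pR-Ea. In slots of 100 bp with at least 10 input reads the median SCP1 activity was -1.58 at the centre of the bin and -0.80 and -0.75 at 500 bp to the left and right. With pPGK these values were -1.48, -0.81 and -0.76, and in PMA_I -1.12, -0.77 and -0.60. With pR-Ea they were -0.58, -0.37 and -0.45, a shallow dip in the same place. Slots within 250 bp of the centre hold the reads that chose the sites. Slots farther out do so only where they fall in another of the sites. Of the 827 sites 132 adjoined one, and such slots were not left out of the values at 500 bp.

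**Figure D5:**
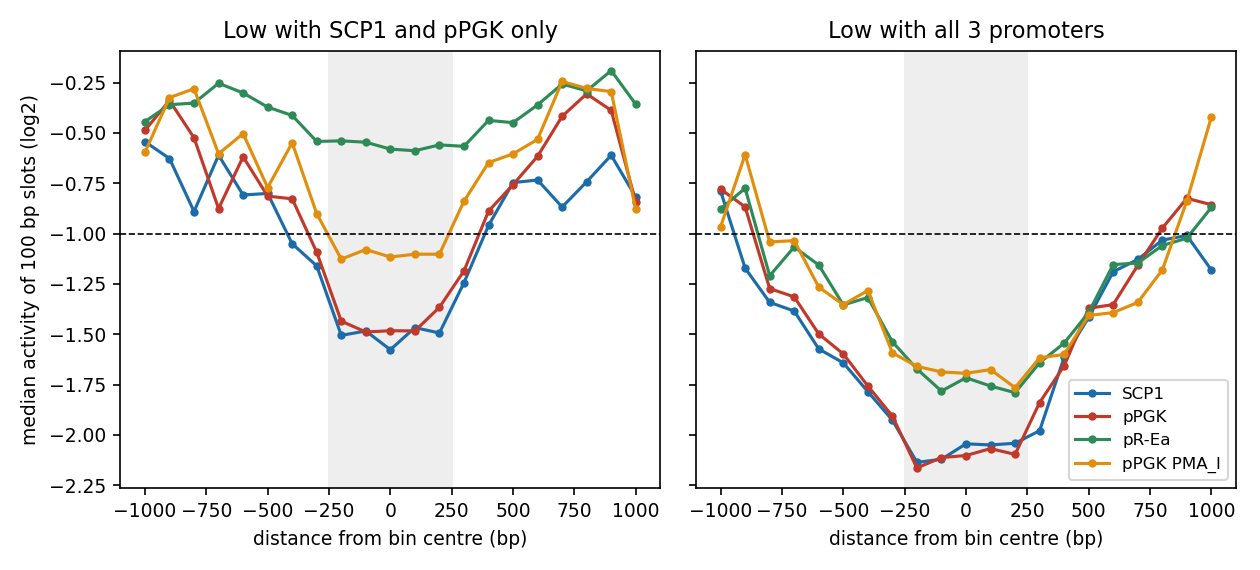
Median activity (log2) of 100 bp slots with at least 10 input reads, by distance from the centre of the bin in bp, for the 827 sites (left) and the 1193 bins low with all 3 promoters (right); the grey band is the bin itself, whose reads chose it, and the dashed line is -1. On the left SCP1 and pPGK reach -1.58 and -1.48 at the centre while pR-Ea stays at -0.58.

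Runs of adjoining sites were short. On the numbered chromosomes other than 18, and X, 668 sites stood alone, 58 runs held 2 bins and 4 runs held 3. The run at chromosome 5, 143177001 to 143178500, was the most deeply read. Its middle bin held 2608 reporter and 6913 input reads with SCP1, 1418 and 2058 with pPGK, and 4184 and 2514 with pR-Ea, at -1.75 (SE 0.11), -1.79 (SE 0.10) and -0.70 (SE 0.05). The bins beside it had pR-Ea activities of -0.09 (SE 0.26) and -0.67 (SE 0.07). At chromosome 12, 119099501 to 119101000, SCP1 activity was -2.19, -2.33 and -1.55 and pR-Ea activity -0.78, -0.86 and -0.76 from bin to bin. At chromosome 3, 129210501 to 129212000, SCP1 activity was -3.67, -2.15 and -1.06 and pR-Ea activity -0.95, -0.72 and -0.59. At chromosome 15, 73614001 to 73615500, the values were -2.18, -2.97 and -1.57 with SCP1 and -0.53, -0.84 and -0.95 with pR-Ea. Reads of low mapping quality were frequent in the last 3 runs, with up to 93.0% of pPGK input reads in the middle bin on chromosome 12, 82.0% in the last bin on chromosome 3 and 64.9% in the last bin on chromosome 15.

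By chromosome the share of kept bins that were among the sites ran from 1.53% on chromosome 19 (15 of 982) and 1.94% on X (13 of 670) to 3.39% on chromosome 5 (71 of 2097) and 3.50% on chromosome 15 (47 of 1343). The sites were thus spread over all autosomes and X.

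Mapping quality differed between these sites and other bins. The median site had 6.80% of its pPGK input reads and 6.41% of its pPGK reporter reads at positions below a quality of 30, against 1.75% and 1.90% in the kept bins outside the group. In the bins low with all 3 promoters the shares were 23.1% and 20.8%, and in those low with SCP1 alone 4.17% and 3.85%. More than 50% of pPGK input reads were of low quality in 127 sites, or 15.4%, against 9.86% of kept bins. This share was 23.2% in the bins low with all 3 promoters and 26.8% in those low with pPGK and pR-Ea only. It was 18.9% with pPGK alone, 18.9% with SCP1 and pR-Ea only, 13.5% with SCP1 alone and 8.28% with pR-Ea alone. Of the 20781 kept bins with at most 10% of pPGK input reads of low quality, 465 were among the sites, or 2.24%. In PMA_I 226 of these sites were low, or 48.6%, where 3.70% of those kept bins were. At the pPGK positions below a quality of 30 themselves, 313 of 348 sites with enough input were at -1 or less, against 29.7% of 8071 kept bins. The share was 95.9% in the bins low with all 3 promoters and 72.0% in those low with pPGK alone. These ratios were scaled by the totals of reads at 30 or more, so -1 is not the low call used elsewhere. The part of mapping quality in the low values was not tested.

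The strands of a site gave like values with SCP1 and pR-Ea and unlike ones with pPGK. For this comparison reads were taken at positions listed on 1 strand, in sites with at least 50 input reads on each. The SCP1, pPGK and pR-Ea reads are among those that chose the sites, so the rule in large part sets their shares below. With SCP1, 504 of 603 sites were low on both strands, or 83.6%, against 10.1% of all bins compared, and 98 on 1 strand only, against 8.25%. With pR-Ea, 9 of 525 were low on both, against 6.85%, and 75 on 1 strand only, against 3.33%. With pPGK, 101 of 313 sites were low on both, or 32.3%, against 2.51% of bins compared, and 212 were low on 1 strand only, against 21.4%. The median difference between strands, without its sign, was 0.25 for SCP1, 1.06 for pPGK and 0.11 for pR-Ea in the sites, and 0.15, 0.65 and 0.08 in all bins compared. In PMA_I, whose reporter reads did not choose the sites, 72 of 325 were low on both strands, or 22.2%, against 2.02%, and 187 on 1 strand only, against 13.8%. In 212 of the 313 sites compared, the low pPGK call thus averages a strand at or below -1 and a strand above it.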

How the data were processed

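The 4 files list reads as fragments of 315 bp, with whole-number counts deposited by the authors in 2 columns and a mapping quality score in another, per the values, since the files have no header. No label says which column is which: the first count was read as reporter and the second as input. Bowtie2, SAMtools and bedtools 2.28.0 with build mm9 are named per the submitters' processing notes; no source used here gives their roles or order. The deposited scores start at 30 in the SCP1 and pR-Ea files and at 0 in both pPGK files. In the pPGK file 66.7% of reporter and 58.9% of input reads were at 30 or more. In the pPGK PMA_I file 100% of reporter and 71.7% of input reads were.

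Lines with a score of at least 30 were used. A 5′ end listed on both strands carried equal counts in every case and was counted once, on its minus-strand line. Fragments were assigned to 500 bp bins by midpoint, and coordinates start at 1. The SE is a linearised error of the ratio over positions. Intervals are exact (Clopper-Pearson). The scripts were tested on simulated counts. Python 3.11.15, numpy 2.4.6, pandas 2.3.3 and scipy 1.17.1 were used. With 1 library per group no test was run.

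Bins were named by rule, chromosomes 18 and Y and unplaced contigs left out. Among sites with at least 100 input reads with each promoter these were the 6 with the largest gap, the 6 lowest with SCP1 and pPGK, the 6 with most input, the 3 highest and the 3 lowest in PMA_I, together with the longest runs and, for each threshold, the nearest bin on each side. The sites and the rules were chosen with earlier results of these data known. Sequences and gene annotation of build mm9 were not used here.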

Additional observations from a re-analysis of the deposited data

Results flagged for a closer look

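The bin at chromosome 7, 53652001 to 53652500, was looked at again because its ratio to input lay on opposite sides with different promoters: the pR-Ea activity was 1.12, while the SCP1 and pPGK activities were -1.95 and -2.09. The difference was not tested, since each promoter has 1 library.

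The pPGK reads below a mapping quality of 30, which did not enter the choice of the sites, were looked at in the same bins. Their ratio was scaled by the pPGK totals of reads at a quality of 30 or more, not by their own totals. On that scale the median of 8071 kept bins with at least 50 such input reads was -0.44. A ratio of -1 is therefore not the low call used elsewhere. In the 348 sites with at least 50 such input reads the median log2 ratio of reporter to input was -1.78. Of these sites 313, or 89.9%, were at -1 or less, against 29.7% of the 8071 kept bins. The median in kept bins outside the group was -0.40. High shares were not particular to the sites. The share was 95.9% in the bins low with all 3 promoters and 84.7% in those low with pPGK and pR-Ea only. It was 72.0% with pPGK alone, 61.5% with SCP1 and pR-Ea only, and 40.1% with SCP1 alone. Reads of low mapping quality may belong elsewhere in the genome.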

How the results depend on the processing

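No paired analysis was possible because each group has 1 library. At a threshold of -1.5, which also loosens the pR-Ea condition, 432 bins met the rule, 214 of them among the 827 sites, and 230 of the 432 were low in PMA_I at that threshold. Distinct positions in place of reads gave 264 and 95, positions with input for all 3 promoters 333 and 208, and bins with at most 10% of pPGK input reads of low quality 465 and 226; the last 2 settings test fewer bins. The settings of shared positions, of low quality bins, of the plus-strand line for positions on both strands and of PMA_I at positions no file lists below 30 were chosen after seeing the data. The other settings, including bins of 250 and 1000 bp, shifted bins, 30 or 100 input reads, other pseudocounts, other quality filters and single strands, gave from 582 to 1169 sites and from 324 to 641 low in PMA_I, within 1.5 times of 827 and 450. A like count did not mean the same bins: of the 827 sites, 627 were among 1169 at a threshold of -0.8, 298 among 582 on the plus strand and 329 among 590 on the minus strand (471 and 484 of the 827 had enough input there), 663 among 873 without the position with most reporter reads, 683 among 777 without a quality filter, 692 among 791 with medians set to 0, and 755 among 816 at positions that no file lists below 30.

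Of 1376 activities of named bins recomputed, 963 stayed inside their counting interval and 408 moved outside it. The other 5 went from -1 or less to above 0. Activities nearer 0 that changed sign were not counted apart and are within the 963 and 408. By distinct positions chromosome 5, 33781001 to 33781500, was at 0.14 in PMA_I and chromosome 13, 44964501 to 44965000, at 0.14 with pPGK. On the minus strand chromosome 17, 87088501 to 87089000, was at 0.10 with pPGK, and chromosome 15, 73615001 to 73615500, at 0.29 with pPGK and 0.54 in PMA_I. The cause was not tested. Depth limits the single sites: the median SE was 0.28 for SCP1, 0.25 for pPGK and 0.16 for pR-Ea, and 501 of the 827 sites have a counting interval that reaches a threshold.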
